A study of Rattus norvegicus with 6 samples.

Results

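The genes that make, move, break down and sense the inhibitory transmitter GABA outside its ion channel receptors were examined in the amygdala of adult male Sprague Dawley rats 1 h after an intraperitoneal injection. They were selected by gene name and role, with earlier results of these data known, and number 9 of the 38445 genes in the count files: Gad1, Gad2, Slc32a1, Slc6a11, Slc6a13, Abat, Aldh5a1, Gabbr1 and Gabbr2. Control rats received saline and ethanol rats received ethanol at 1 g/kg. Each library pooled the RNA of 2 rats, so the 6 rats of a group gave 3 libraries, and the spread between libraries is that between pools and not between single rats. The dissected tissue took in the central, medial and basolateral nuclei, according to the study's methods. All 9 genes passed the filter on low counts and were tested, and their values are given as CPM, read counts relative to the total of the library, after scaling between libraries by the TMM method of edgeR.

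GABA is made from glutamate by glutamate decarboxylase, whose 2 forms are encoded by Gad1 and Gad2, and is packed into synaptic vesicles by the transporter that Slc32a1 encodes. After release it is taken up by membrane transporters of neurons, glia and the coverings of the brain, and it is degraded in mitochondria by the enzymes encoded by Abat and Aldh5a1. The GABA-B receptor is a G protein-coupled receptor that works as a pair of the products of Gabbr1 and Gabbr2. The central amygdala consists largely of GABA neurons, whereas the basolateral amygdala holds mostly glutamate neurons.

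Each library held between 62576504 and 70755739 assigned reads, so that the limit of 3 counts corresponded to 0.0424 to 0.0479 CPM, which covers counting error only. The lowest count of a GABA gene in a library was 506, for Slc6a13. Markers of the cell types in the tissue were present, but their summed levels differed between libraries. The summed level of 7 markers of pallial glutamate neurons ran from 602 to 1226 CPM and that of 6 oligodendrocyte markers from 3413 to 9501 CPM. Ethanol replicate 3 stood apart, with 462 CPM of 7 hypothalamic neuron markers against 97.4 to 221 CPM in the other 5 libraries. Much of this was Pmch, at 206.5 CPM there and at 2.12 to 14.5 CPM elsewhere. Hcrt, Avp, Trh and Slc17a6 were also highest there, but Oxt was highest in control replicate 1 and Agrp in ethanol replicate 1. The 8 choroid plexus markers summed to 517, 1118 and 892 CPM under saline but to 11.6, 12.3 and 477 CPM under ethanol, and one of them, Otx2, had at most 1 count. In such bulk tissue, fewer cells of a type and less RNA per cell cannot be told apart.

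Promoter sequence was available from RefSeq (build GRCr8) for 7 of the 9 genes, and the 250 bases before the annotated start are shown for 4 of them. The first 3 belong to the genes of GABA neurons, all of which were highest in control replicate 1. The last belongs to the transporter gene Slc6a11, which was highest in ethanol replicate 3. Capitals mark every match, on either strand, to 5 motifs. The letters searched for the TATA box were TATAAA, and those for the GC box, which binds Sp1, were GGGCGG. The cyclic AMP response element was searched as TGACGTCA. For the E-box the letters were CACGTG. Of the glucocorticoid receptor element only a part was searched, as AGAACA, and not the whole element.
Gad1, chr3:75777202-75777451, plus strand: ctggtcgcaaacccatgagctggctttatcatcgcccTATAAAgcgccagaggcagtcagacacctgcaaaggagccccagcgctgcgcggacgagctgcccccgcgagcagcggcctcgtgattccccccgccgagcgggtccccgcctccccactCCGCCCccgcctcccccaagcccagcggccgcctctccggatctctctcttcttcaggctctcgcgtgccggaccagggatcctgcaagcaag
Gad2, chr17:89671468-89671717, plus strand: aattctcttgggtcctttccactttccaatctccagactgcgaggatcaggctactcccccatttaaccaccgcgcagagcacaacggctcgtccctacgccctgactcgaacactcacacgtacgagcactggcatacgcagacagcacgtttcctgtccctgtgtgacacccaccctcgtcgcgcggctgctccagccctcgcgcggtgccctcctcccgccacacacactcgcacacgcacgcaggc
Slc32a1, chr3:167686995-167687244, plus strand: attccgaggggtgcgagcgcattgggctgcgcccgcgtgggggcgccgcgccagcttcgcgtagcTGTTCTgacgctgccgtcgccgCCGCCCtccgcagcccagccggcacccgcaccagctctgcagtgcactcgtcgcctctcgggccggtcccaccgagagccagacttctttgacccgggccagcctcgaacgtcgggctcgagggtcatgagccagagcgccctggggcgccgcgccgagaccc
Slc6a11, chr4:148853307-148853556, plus strand: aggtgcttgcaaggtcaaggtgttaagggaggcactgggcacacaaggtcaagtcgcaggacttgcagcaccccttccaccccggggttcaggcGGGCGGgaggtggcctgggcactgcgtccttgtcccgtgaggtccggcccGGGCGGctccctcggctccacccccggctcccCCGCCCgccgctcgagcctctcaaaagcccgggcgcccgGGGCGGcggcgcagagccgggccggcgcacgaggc

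Gad1 held 1 TATA box, which began 213 bases before the start, and 1 GC box. Slc32a1 held 1 GC box and 1 match to the searched part of the glucocorticoid receptor element, 185 bases before the start. Slc6a11 held 4 GC boxes, and none of the 5 motifs was found in the window of Gad2. Of the windows not shown, that of Gabbr1 also held 4 GC boxes, that of Gabbr2 held 1, and that of Aldh5a1 held none of the motifs. Of 33469 promoters of the same length, 12.9% held the TATA box, 30.5% the GC box and 1.59% the cyclic AMP response element. The E-box was held by 5.59% and the searched part of the glucocorticoid receptor element by 17.5%. Both strands were counted, and no 2 marked matches overlapped. The 4 windows consisted of G or C to 68.4% in Gad1, 62% in Gad2 and 73.6% in both Slc32a1 and Slc6a11, against a median of 51.2% over all promoters. These matches are descriptions of the letters in the window and not of bound sites.

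Acute ethanol was compared with saline to ask whether the RNA of these genes differed 1 h after the injection. In the quasi-likelihood test of edgeR, adjusted by Benjamini-Hochberg over the 18141 genes tested, 0 of the 9 GABA genes had an adjusted p below 0.2, and 0 had an unadjusted p below 0.05. Over all genes the shares were 0% and 4.15%. For 0 of the 9 genes did the 3 ethanol libraries lie apart from the 3 control libraries, which happened for 8.85% of all genes (3.66% higher and 5.19% lower under ethanol). DESeq2, limma-voom and edgeR's likelihood ratio test also gave 0 calls among the 9. The log2 fold changes were above 0 for 5 genes and below 0 for 4, with a median of 0.04, beside a median of 0.0064 over all genes. The largest was that of Gabbr2, at 0.17 (standard error 0.13, edgeR's quasi-likelihood unadjusted p = 0.256, adjusted p = 1.0). Outside Slc6a13, the 95% intervals of the differences lay between 0.755-fold and 1.39-fold of the control level, and each gene's own interval is given with its values.

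**Figure D1:**
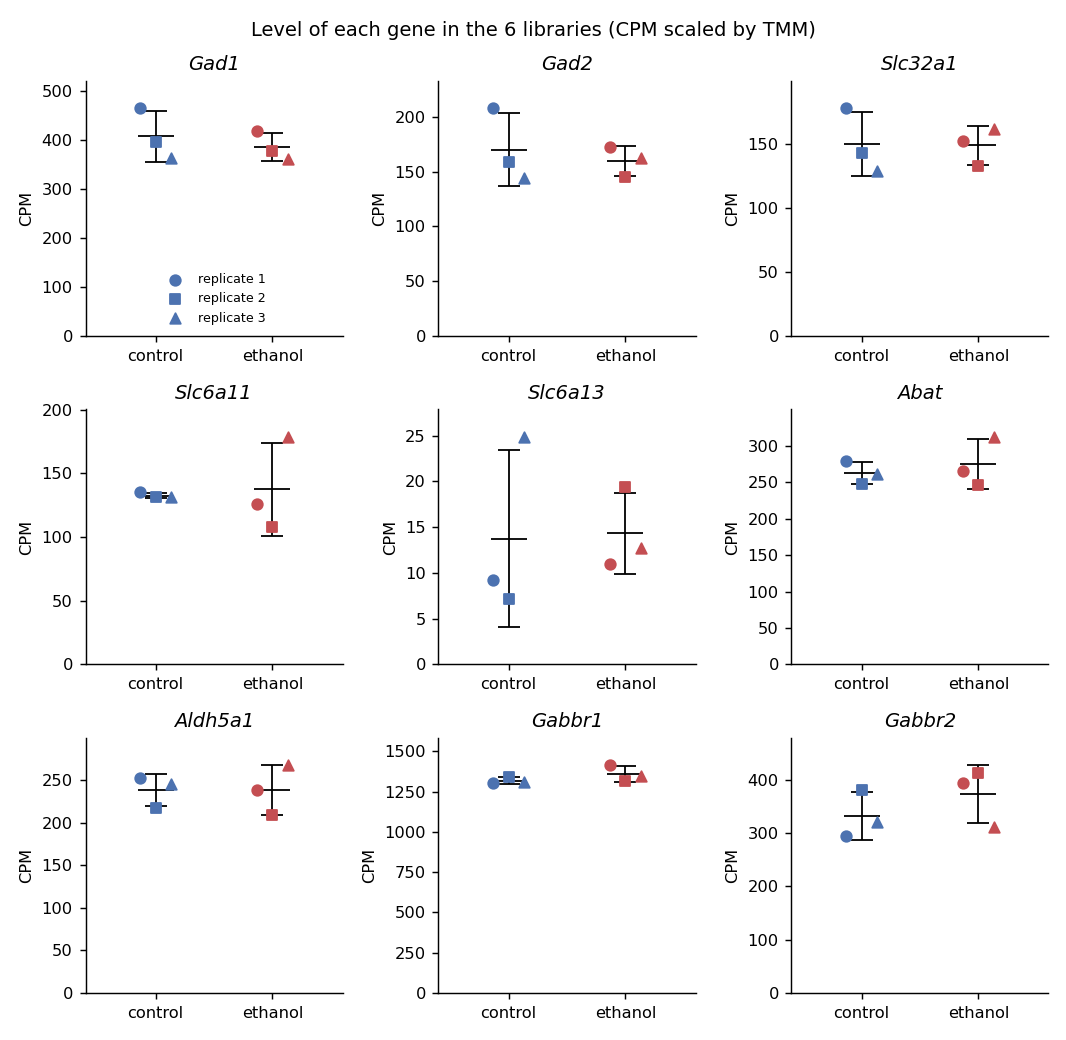
Level of each of the 9 genes (CPM, vertical axes from 0) in the control and ethanol libraries, with the marker shape giving the replicate number and the bar the mean ± SD of 3 libraries. The groups overlapped for every gene, and Slc6a13 had the widest spread, from 7.12 to 24.9 CPM.

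Gad1 encodes the form of glutamate decarboxylase known as GAD67 and occupies 19 exonic blocks between 56861440 and 56902139 on chromosome 3 (build Rnor_6.0, as for all gene positions here). Its level was 464, 395 and 362 CPM in control replicates 1, 2 and 3 and 418, 378 and 361 CPM in ethanol replicates 1, 2 and 3. Control replicate 1 was highest, and the ethanol libraries lay within or just below the range of the controls. The means were 407 ± 52 CPM under saline and 385 ± 29.5 CPM under ethanol (SD, n = 3 in each group), which gave a log2 difference of -0.08 with a 95% interval from -0.33 to 0.17.

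Gad2, on chromosome 17 from 89171576 to 89234770, encodes GAD65, the form tied to vesicle membranes at the nerve terminal. It was at 208, 158 and 144 CPM under saline and at 172, 145 and 162 CPM under ethanol. The order of the control libraries was that of Gad1, and all 3 ethanol libraries fell inside the control range. Its log2 fold change was -0.09 with a 95% interval from -0.41 to 0.23.

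Slc32a1, on chromosome 3 from 155102980 to 155107815, encodes the vesicular GABA and glycine transporter and is built of only 3 exonic blocks. Its level was 178, 143 and 129 CPM under saline and 152, 132 and 161 CPM under ethanol. Control replicate 1 was again the highest and control replicate 3 the lowest of all 6. Its log2 fold change was -0.0098 with a 95% interval from -0.30 to 0.28.

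These 3 genes, which together mark a neuron as GABAergic, varied between libraries more than their difference between groups. The fold between the highest and the lowest library was 1.29 for Gad1, 1.44 for Gad2 and 1.38 for Slc32a1. The standard deviation of log2 CPM over the 6 libraries was 0.20 for Gad2, above that of 91.3% of the 2650 tested genes within 2-fold of its mean level. Without control replicate 1, the log2 fold changes of Gad1, Gad2 and Slc32a1 were 0.02, 0.07 and 0.12, each with the opposite sign. The ratio of Gad1 to Gad2 was steadier than either gene. Per length of exon it lay between 1.27 and 1.49 in the 6 libraries, with a mean of 1.38 ± 0.0886 (SD, n = 3) in controls and 1.38 ± 0.11 (SD, n = 3) after ethanol (2-sided exact permutation test on the log2 ratio, p = 1.0). The ratio of Gad2 to Slc32a1 per length was 1.48 ± 0.042 (SD, n = 3) in controls and 1.40 ± 0.0824 (SD, n = 3) after ethanol (exact permutation test, p = 0.3). Among the 36 pairs that 9 genes form, Gad2 and Slc32a1 had the second most similar pattern over the libraries, with a root mean square difference of 0.0661 in centred log2 CPM. For Gad1 and Slc32a1 the difference was 0.1195, near the 0.12 of Slc32a1 and Abat. In ethanol replicate 3, Gad1 was the lowest of all 6 libraries, whereas Slc32a1 was the highest of the ethanol libraries.

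Markers of central amygdala and striatal-type GABA neurons, 10 genes in all, summed to 566, 389 and 446 CPM under saline and to 550, 416 and 599 CPM under ethanol. Control replicate 1 was the highest control for this sum as for Gad1, Gad2 and Slc32a1, whereas ethanol replicate 3, the highest of all 6 for the sum, was the lowest for Gad1. The 7 interneuron markers summed to 388, 431 and 361 CPM under saline and to 399, 445 and 354 CPM under ethanol, highest in replicate 2 of either group, in which none of the 3 genes was highest. Among controls, Pvalb, Vip and Lhx6 were highest in replicate 1, as the 3 genes were, and Sst, Cck and Reln in replicate 2. Cck, like the summed markers of pallial glutamate neurons, was highest of all 6 libraries in ethanol replicate 2 and lowest in ethanol replicate 3. The part of these cell types in the levels of the 3 genes was not tested.

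**Figure D2:**
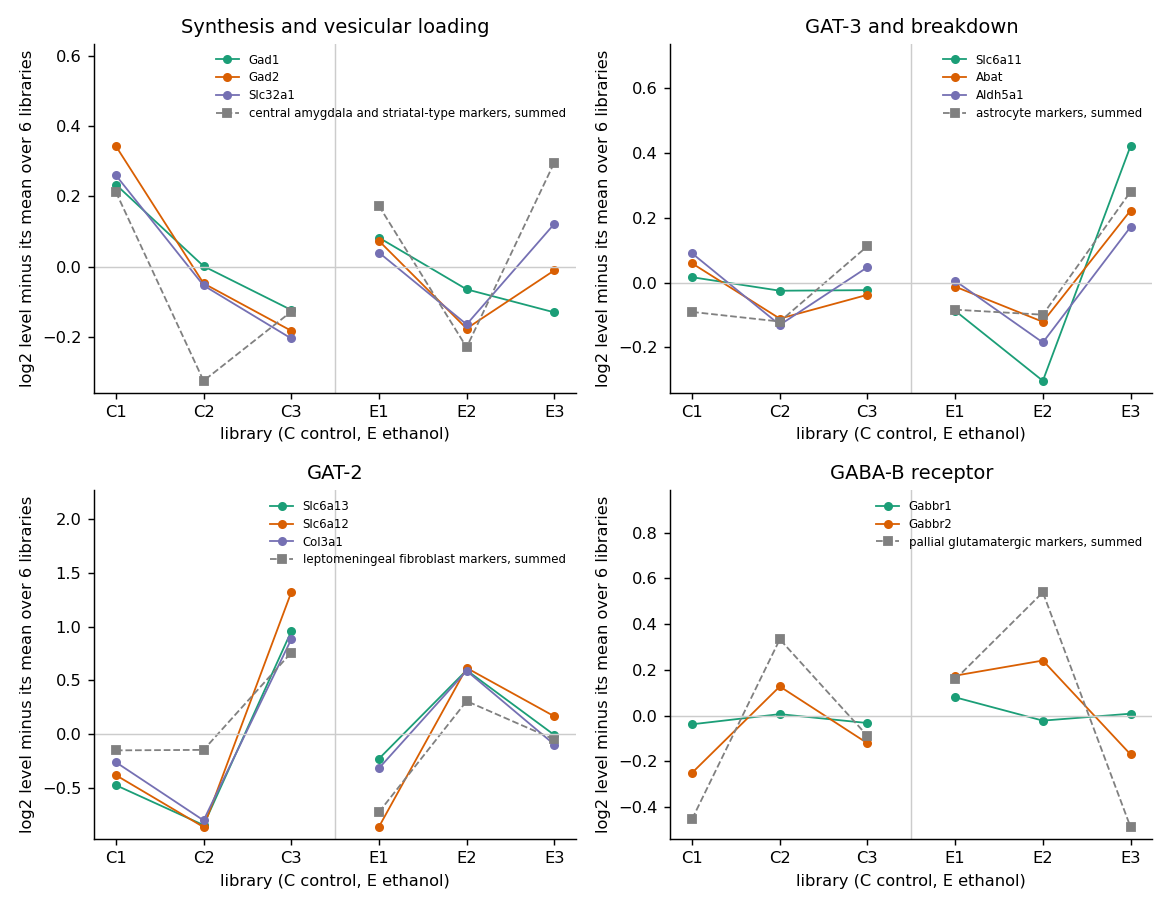
Log2 level minus its mean over the 6 libraries (vertical axes) for the GABA genes of each step and a summed list of cell type markers (dashed), with lines joining the libraries of one group only to guide the eye. Gad1, Gad2 and Slc32a1 were all highest in C1, Slc6a11, Abat and Aldh5a1 in E3, Slc6a13 with Slc6a12 and Col3a1 in C3, and Gabbr2 with the pallial markers in E2.

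Slc6a11 encodes GAT-3, the GABA transporter of astrocytes, and lies on chromosome 4 from 146106386 to 146223228. Its level was 135, 131 and 131 CPM under saline, a coefficient of variation of 1.64%. In the ethanol libraries it was 126, 108 and 179 CPM, a coefficient of variation of 26.7%. Ethanol replicate 3 was the highest and ethanol replicates 1 and 2 the lowest of all 6 libraries, so that the ethanol group enclosed the controls on both sides. The log2 fold change was 0.05 with a 95% interval from -0.33 to 0.43. Without ethanol replicate 3 it was -0.18, of opposite sign (edgeR's quasi-likelihood test, unadjusted p = 0.0454, adjusted p = 0.55). In that fit 1629 of 18356 genes had an unadjusted p below 0.05, against 752 of 18141 with all 6 libraries. Astrocyte markers, 7 genes, summed to 5741 CPM in ethanol replicate 3 and to 4350 to 5111 CPM in the other 5 libraries. Aqp4, Gja1, Aldh1l1, Gfap and Slc4a4 were highest in ethanol replicate 3, but Slc1a2 in control replicate 2 and Slc1a3 in control replicate 3. The summed hypothalamic, oligodendrocyte, and central amygdala and striatal-type markers were also highest in ethanol replicate 3. The part of these cell types in the level of Slc6a11 was not tested. The genes with the closest pattern to Slc6a11 over the 6 libraries were Fbxo32, Igsf9b and Il3ra, with root mean square differences of 0.0451, 0.0492 and 0.0512 in centred log2 CPM.

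Slc6a13 encodes GAT-2, which is known from the leptomeninges that cover the brain, and from liver and kidney. It lies on chromosome 4 from 153874942 to 153912185 in 18 exonic blocks. It had 603, 506 and 1578 counts under saline and 702, 1246 and 888 under ethanol, or 9.22, 7.12 and 24.9 CPM and 10.9, 19.4 and 12.8 CPM. Control replicate 3 and ethanol replicate 2 were high and the other 4 libraries low, so that both groups held a high library. The highest level was 3.49 times the lowest, and the standard deviation of log2 CPM, 0.67, exceeded that of 99.4% of the 4134 tested genes within 2-fold of its mean level. The fitted log2 fold change was 0.06 with a 95% interval from -0.98 to 1.11, the widest of the 9 genes. Its sign and size depended on single libraries. Without control replicate 3 the log2 fold change was 0.81 (edgeR's quasi-likelihood test, unadjusted p = 0.0161, adjusted p = 1.0). In that fit 570 of 18401 genes had an unadjusted p below 0.05. The log2 fold change of Slc6a13 was -0.16 without control replicate 1, -0.25 without control replicate 2 and -0.21 without ethanol replicate 2.

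The genes with the pattern most like that of Slc6a13, by root mean square difference of centred log2 CPM over the 6 libraries, were Col3a1 (0.107), Slco2a1 (0.161) and Slc22a6 (0.162). Col3a1, a fibrillar collagen gene, was at 15.1, 10.4 and 33.3 CPM under saline and at 14.5, 27.2 and 16.9 CPM under ethanol. Like Slc6a13, it was highest in control replicate 3 and next in ethanol replicate 2. Slc22a6, which encodes an organic anion transporter, also belongs to the list of 8 leptomeningeal fibroblast markers. That list summed to 178, 178 and 334 CPM under saline and to 119, 244 and 191 CPM under ethanol, again highest in control replicate 3 and next in ethanol replicate 2. Much of the sum was Igf2, at 204 CPM in control replicate 3 and 144 CPM in ethanol replicate 2. Igf2, Col1a1, Slc22a6, Foxc1 and Aldh1a2 each had this order of the highest libraries. Dcn and Lum were also highest in control replicate 3, but next in control replicate 2, where Slc6a13 was lowest. One gene of the list, Col1a2, is listed at 0 in each library. The reason is not known, and this 0 is not read as absence of its RNA. The part of leptomeningeal tissue in the level of Slc6a13 was not tested. The choroid plexus markers summed to 892 CPM in control replicate 3 and to 12.3 CPM in ethanol replicate 2, and their part was not tested either.

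Slc6a12, which encodes the betaine and GABA transporter BGT-1, begins 9013 bases after the end of Slc6a13. It was rare, with 27, 21 and 85 counts under saline and 19, 53 and 42 under ethanol. Its high libraries were the same as those of Slc6a13, control replicate 3 and ethanol replicate 2. Its log2 fold change was -0.24 (standard error 0.59). Per length, Slc6a13 was at 4.1 and Slc6a12 at 0.251 CPM per kb of exon over the 6 libraries.

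Abat encodes GABA transaminase, which turns GABA into succinic semialdehyde, and lies on chromosome 10 from 7093406 to 7200439. It was at 279, 248 and 261 CPM under saline and at 265, 246 and 312 CPM under ethanol. Ethanol replicate 3 was the highest, and the other ethanol libraries lay near or within the control range. Its log2 fold change was 0.06 with a 95% interval from -0.17 to 0.30.

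Aldh5a1, on chromosome 17 from 42133076 to 42159413, encodes succinic semialdehyde dehydrogenase, which passes the product on to the citric acid cycle as succinate. Its level was 253, 217 and 246 CPM under saline and 238, 209 and 268 CPM under ethanol. The group means were almost equal, at 238 ± 18.9 CPM (SD, n = 3) and 238 ± 29.3 CPM (SD, n = 3), and the log2 fold change was -0.00075 with a 95% interval from -0.24 to 0.24. Of its exonic bases, 1385 lie opposite a gene without a symbol on the other strand, which had 19 to 33 counts. The counting was strand-specific, and none of the 9 genes shared exonic bases with another gene on its own strand.

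Abat and Aldh5a1, the consecutive steps of GABA breakdown, had the most similar pattern of the 36 pairs, with a root mean square difference of 0.0509 in centred log2 CPM. Per length of exon, the ratio of Abat to Aldh5a1 stayed between 2.04 and 2.26 in the 6 libraries. It was 2.12 ± 0.0766 (SD, n = 3) in controls and 2.21 ± 0.0668 (SD, n = 3) after ethanol (2-sided exact permutation test on the log2 ratio, p = 0.2, and 0.9 after Benjamini-Hochberg adjustment over 6 ratios). Both genes were highest in ethanol replicate 3 and lowest in ethanol replicate 2, as was Slc6a11.

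Gabbr1 encodes the GABA-B receptor subunit that binds GABA and lies on chromosome 20 from 1955344 to 1984907 in 24 exonic blocks. It was the most abundant of the 9 genes and the steadiest. Its level was 1303, 1343 and 1308 CPM under saline and 1414, 1317 and 1345 CPM under ethanol. Ethanol replicate 1 was highest, and the rest lay close together. The highest library was 1.085 times the lowest, and only 3.36% of the 149 tested genes within 2-fold of its mean level had a smaller standard deviation of log2 CPM. Its log2 fold change was 0.04 with a 95% interval from -0.14 to 0.23.

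Gabbr2, on chromosome 5 from 62276100 to 62621737, encodes the subunit that couples to G proteins. It was at 294, 382 and 321 CPM under saline and at 394.5, 413 and 311 CPM under ethanol. Ethanol replicates 1 and 2 were above all controls, while ethanol replicate 3 was below all but control replicate 1. The means were 332 ± 45 CPM under saline and 373 ± 54.5 CPM under ethanol (SD, n = 3 in each group), and the 95% interval of the log2 fold change ran from -0.15 to 0.48 (exact permutation test, p = 0.4). When ethanol replicate 3 was left out, the log2 fold change was 0.28 (edgeR's quasi-likelihood test, unadjusted p = 0.0378, adjusted p = 0.534), and without control replicate 1 it was 0.08. In the fit without ethanol replicate 3, 1629 of 18356 genes had an unadjusted p below 0.05, against 752 of 18141 with every library.

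The libraries low in Gabbr2 were those low in markers of pallial glutamate neurons. These 7 markers summed to 616, 1063 and 793 CPM under saline and to 941, 1226 and 602 CPM under ethanol. Control replicate 1 and ethanol replicate 3 were the lowest for both, and ethanol replicate 2 the highest for both. The part of pallial glutamate neurons in the level of Gabbr2 was not tested. Among the closest patterns to Gabbr2 were those of D430041D05Rikl and Clstn1, with root mean square differences of 0.0253 and 0.0267 in centred log2 CPM over the 6 libraries. Per length of exon, Gabbr1 exceeded Gabbr2 by 3.80 to 5.28 times. The ratio was 4.77 ± 0.549 (SD, n = 3) in controls and 4.41 ± 0.69 (SD, n = 3) after ethanol (2-sided exact permutation test on the log2 ratio, p = 0.5).

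**Figure D3:**
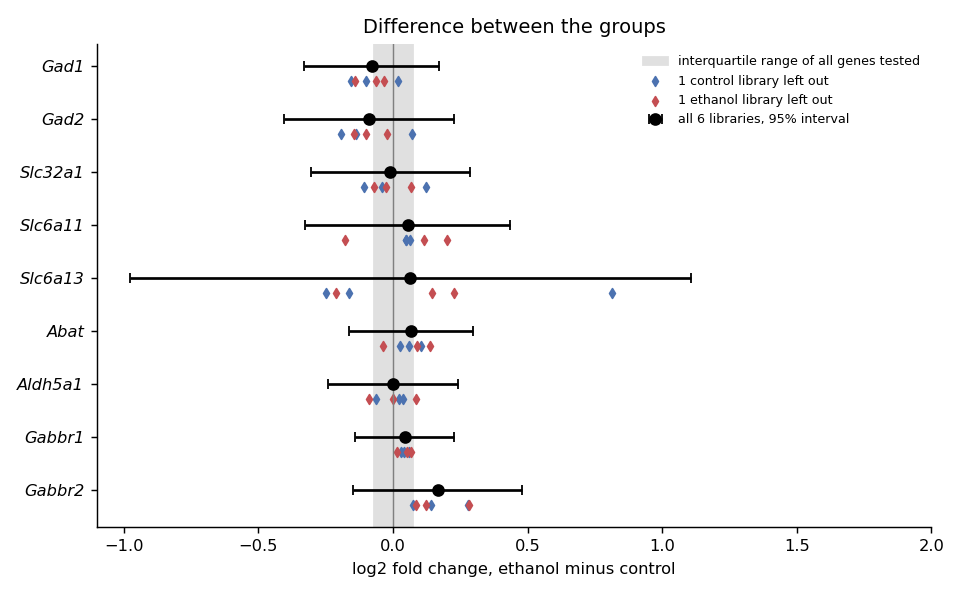
Log2 fold change of each gene, ethanol minus control (horizontal axis), with its 95% interval from edgeR's quasi-likelihood fit (black), the same value with 1 library left out (diamonds just below) and the interquartile range of all tested genes (grey band). Every interval includes 0, and the value of Slc6a13 moves to 0.81 when control replicate 3 is left out.

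The order of the levels was compared per length of exon, because the exonic lengths ran from 1935 bases for Slc6a11 to 5475 bases for Gabbr2. Gabbr1 was first, at 291 CPM per kb over the 6 libraries, and 2.53 times the next gene, Gad1, at 115 CPM per kb, with no overlap of their ranges. Abat followed at 94.8, Gad2 at 84, Slc6a11 at 69.8, Gabbr2 at 64.4 and Slc32a1 at 58.3 CPM per kb. From Gad1 to Slc32a1 the ranges of neighbours in this order overlapped, and Slc6a11 was above Gabbr2 in 3 of 6 libraries. Aldh5a1, at 43.9 CPM per kb, was below Slc32a1 in each of the 6 libraries without overlap of the ranges. Slc6a13 was last, at 4.1 CPM per kb and 10.7 times below Aldh5a1. The exonic length is that of the annotation, and a gene model that lacks part of the transcript would change such a level.

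**Figure D4:**
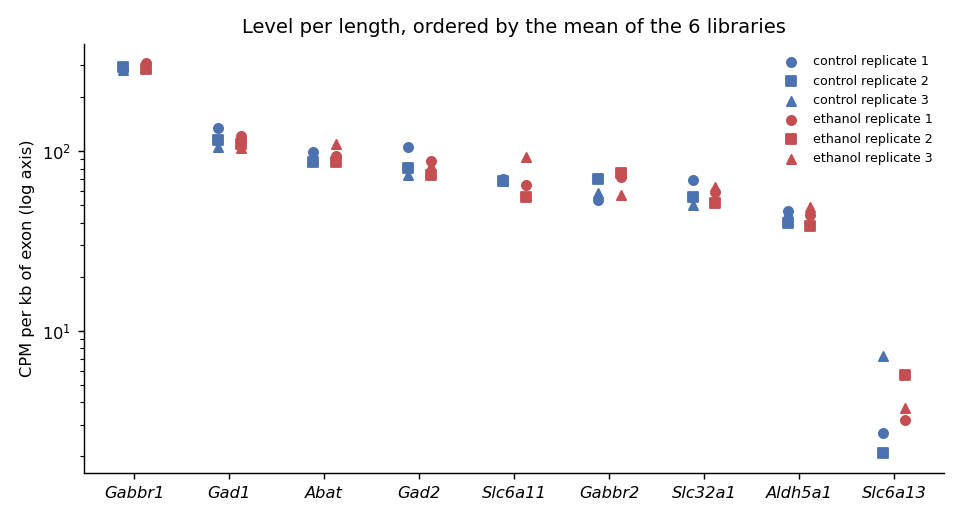
Level of each gene per length of exon (CPM per kb, log axis) in the 6 libraries, ordered by the mean, with control libraries in blue, ethanol libraries in red and the marker shape giving the replicate. Gabbr1 stands above and Slc6a13 below the other 7 genes, which lie between 38.5 and 135 CPM per kb.

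A list of 32 further genes of the pathway was read from the same fit, and all 32 were tested. It held the supply of cofactor, glutamate and glutamine, other routes to GABA, other uptake, the reduction of succinic semialdehyde, and the partners and effectors of the GABA-B receptor. With edgeR's quasi-likelihood test, 0 of the 32 had an adjusted p below 0.2, 1 was higher at an unadjusted p below 0.05 and 0 were lower, where the shares of all genes were 0%, 1.57% and 2.57%. DESeq2, limma-voom and the likelihood ratio test of edgeR also called 0 of the 32. The median log2 fold change was 0.05, and 23 of the 32 were above 0, against 52.6% of all genes. The groups did not overlap for 3 of the 32 genes, a share near the 8.85% of all genes in either direction. These were Slc38a1, Akr1a1 and Gnao1, with log2 fold changes of 0.07, 0.05 and 0.11. Each was at higher levels under ethanol, and of all genes 3.66% lay apart and higher.

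The gene with an unadjusted p below 0.05 was Aldh1a1, which encodes an aldehyde dehydrogenase able to form GABA from a putrescine product and also to oxidize retinal. It was at 13, 11.1 and 12.2 CPM under saline and at 10.9, 22.7 and 25 CPM under ethanol. Ethanol replicates 2 and 3 were well above the controls and ethanol replicate 1 was the lowest of all 6. The log2 fold change was 0.69 (standard error 0.27, edgeR's quasi-likelihood unadjusted p = 0.0365 and adjusted p = 1.0). Without ethanol replicate 1 it was 0.98, and edgeR's adjusted p was then 0.162.

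The most abundant genes of 5 groups of the list were read in the same way, and none had an unadjusted p below 0.05. Maob, monoamine oxidase B, was at 90.7 ± 6.92 CPM under saline and 89.8 ± 7.79 CPM under ethanol (SD, n = 3 each), and the others are given in that order. Glul, the glutamine synthetase of astrocytes, was at 1436 ± 112 and 1520 ± 68.6 CPM (SD, n = 3 each). Akr1a1, an aldehyde reductase, was at 349 ± 6.51 and 362 ± 7.89 CPM (SD, n = 3 each). Pianp, which binds the GABA-B receptor, was at 216 ± 14.5 and 226 ± 11.6 CPM (SD, n = 3 each). Gnao1, the alpha subunit of the G protein Go, was at 502 ± 13.9 and 540 ± 23.5 CPM (SD, n = 3 each). The 5 receptor partners had log2 fold changes from 0.04 to 0.09 and the 8 effectors from -0.05 to 0.13.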

How the data were processed

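RNA was sequenced from 3 control and 3 ethanol libraries of pooled rat amygdala. Raw counts were deposited by the authors: per the file headers, featureCounts 1.6.3 counted reads (single-end, 100 nt, per the labels) over the exons of each Rnor_6.0 gene with the reverse-stranded setting 2. The submitters' processing notes list STAR 2.7.0f. Multi-mapping reads were left out, and no normalization had been applied.

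Symbols were matched by NCBI gene identifier through a RefSeq table of GRCr8, for 29322 of 38445 genes. Counts were analysed in R 4.3.3 with edgeR 4.0.16: filterByExpr (minimum 10, total 15), TMM and the quasi-likelihood F test, adjusted by Benjamini-Hochberg over 18141 genes with a threshold of 0.2 and checked on simulated data. The main text of the study names no RNA-seq test. The standard error is the absolute log2 fold change divided by the square root of F. Log2 CPM carries a prior count of 2. The exact permutation test is 2-sided, covers 20 splits and cannot give a p under 0.1. Alternatives were DESeq2 1.42.0, limma 3.58.1, the likelihood ratio test, other scalings and filters, a replicate block and leaving out each library. The 9 genes, the lists and the tests were chosen with earlier results of these data known. Named genes are the 9, the pathway genes with an unadjusted p below 0.05 or the highest count of their group, the 3 closest patterns to each of the 3 most variable genes, and markers at 0 or with the highest level. Some genes that this rule names are not reported here. Ccdc153 of the cilia markers was not matched. P-values measure the spread between pools of 2 rats.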

Additional observations from a re-analysis of the deposited data

How the results depend on the processing

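For the 9 GABA genes and each of 14 alternatives, no gene reached an adjusted p below 0.2, a count of 0. Over all genes tested the count was 77 with edgeR's likelihood ratio test and 75 with DESeq2, 0 to 83 with 1 library left out (83 without ethanol replicate 3, 4 without ethanol replicate 1), and 0 otherwise. Among the 32 pathway genes it was 0 to 1 with 1 library left out, the 1 being Aldh1a1 without ethanol replicate 1. Scaling by library size alone moved the median of all genes to -0.02 and reversed none of the 9. With no filter on low counts the log2 fold change of Aldh5a1 was 0.00033. With 1 library left out, the log2 fold change ran from -0.16 to 0.017 for Gad1, -0.19 to 0.072 for Gad2, -0.11 to 0.12 for Slc32a1, -0.18 to 0.20 for Slc6a11, -0.25 to 0.81 for Slc6a13, -0.037 to 0.14 for Abat, -0.091 to 0.086 for Aldh5a1, 0.01 to 0.07 for Gabbr1 and 0.08 to 0.28 for Gabbr2. The log2 ratio, as a difference of ethanol from control, then ran from -0.055 to 0.061 for Gad1 over Gad2, -0.14 to 0.035 for Gad1 over Slc32a1 and -0.76 to 0.17 for Slc6a11 over Slc6a13, and the other 3 ratios kept their sign.

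With the replicate number as a replicate block, 0 genes and 0 of the 9 had an adjusted p below 0.2. The log2 fold change of Gabbr2 was 0.16 and that of Slc6a13 0.23. The labels do not say that a number marks a shared batch. Deviations from the group means correlated by 0.0264, 0.389 and 0.21 for libraries numbered 1, 2 and 3. Control 2 and control 3 correlated best with the ethanol library of their own number, and control 1 with ethanol 3 (0.305). Whether libraries of the same number shared a batch was not tested.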

Other observations

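The lists of interneuron markers and of central amygdala and striatal-type markers were also read. Of 7 interneuron markers, 6 were tested, since Npy is listed at 0 in each library. Why Npy had no counts is not known, and its 0 is not read as absence of its RNA. After adjustment 0 of the 6 passed 0.2 (edgeR quasi-likelihood, 1 at an unadjusted p below 0.05). The log2 fold changes were above 0 for 3 of the 6 tested, with a median of -0.0056. Pvalb, the parvalbumin gene, had a log2 fold change of 0.20 (standard error 0.15) and Cck, the cholecystokinin gene, 0.18 (standard error 0.18). Vip was at -0.04 and Reln at -0.01 on the same scale. Lhx6, a transcription factor gene of interneurons from the medial ganglionic eminence that was singled out after its values were seen, was at 45.7, 42.2 and 35.5 CPM under saline and at 35.46, 32.4 and 35.4 CPM under ethanol. Its log2 fold change was -0.26 (standard error 0.10, edgeR's unadjusted p = 0.031, adjusted p = 1.0), and the ethanol libraries lay below the controls, ethanol replicate 1 by a small margin from control replicate 3, as for 5.19% of genes. Sst, the somatostatin gene and the most abundant of the list, was at 151 ± 17.6 CPM under saline and 151 ± 15.1 CPM under ethanol (SD, n = 3 in each group). Of the 10 central amygdala and striatal-type markers, 0 had an unadjusted p below 0.05, and the most abundant, Penk, the proenkephalin gene, was at 182 ± 40.3 and 207 ± 45 CPM (SD, n = 3 each).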
